A study of Homo sapiens with 16 samples.

Results

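The ERBB receptors and the inhibitors that the cells make against them were followed at the RNA level in MCF10A cells exposed to an inhibitor of 1 of those receptors. All rows of the array carrying the symbol EGFR, ERBB2, ERBB3, ERBB4, ERRFI1 or LRIG1 were taken, with every row kept separate. This gave 6 genes of the 18190 symbols on the array and 11 rows of 20589. MCF10A (MCF-10A in some labels) is a line of breast epithelial cells that were not transformed and came from human mammary tissue, and CP724,714 is a small-molecule inhibitor of the kinase of HER2, the receptor that ERBB2 encodes. Parallel plates were treated with 1 µM CP724,714, and RNA was taken every 3 hours up to 45 hours and hybridized to Illumina Ref8v2 bead arrays. Cells of the 0 hour array had no inhibitor, and the other 15 time points are from treated cells of the same line. All cells shared a serum-free Ham's F-12 medium with EGF at 10 ng/mL, insulin at 5 µg/mL and hydrocortisone at 1 µg/mL, so a ligand of EGFR was present at every time point. There was 1 array at each time point and no untreated series to set beside it, so inhibitor, fresh medium (given when treatment began) and time in culture cannot be told apart.

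The ERBB family consists of the receptor tyrosine kinases EGFR, HER2, ERBB3 and ERBB4, which pair with each other when ligands such as EGF or the neuregulins bind. HER2 has no known ligand of its own and acts as the preferred partner of the others, and ERBB3, whose kinase is weak, couples such pairs to PI3 kinase and AKT. ERRFI1 (also called MIG6) binds the kinase domain of active ERBB receptors and shuts them down, and LRIG1 is a transmembrane protein that promotes the removal of ERBB receptors from the cell surface. The arrays measured RNA, and neither kinase activity nor protein was measured.

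Promoter sequences are shown for ERRFI1 and LRIG1, the genes for inhibitors whose RNA rose at different times. They are the 250 bases before the start of the gene in RefSeq (GRCh38.p14), written 5′ to 3′ on the strand of the gene, which is the minus strand for both. Capitals mark CCAAT, the core of the CCAAT box, and GGGCGG, the GC box bound by SP1, on either strand. ERRFI1 lies at chr1:8011727-8026309 and the window shown at chr1:8026310-8026559. LRIG1 lies at chr3:66378797-66501121 and its window at chr3:66501122-66501371.
ERRFI1: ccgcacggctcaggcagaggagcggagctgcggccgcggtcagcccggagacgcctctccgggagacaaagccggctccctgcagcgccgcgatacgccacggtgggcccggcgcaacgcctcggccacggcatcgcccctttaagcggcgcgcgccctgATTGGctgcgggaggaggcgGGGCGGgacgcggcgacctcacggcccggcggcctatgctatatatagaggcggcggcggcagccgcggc
LRIG1: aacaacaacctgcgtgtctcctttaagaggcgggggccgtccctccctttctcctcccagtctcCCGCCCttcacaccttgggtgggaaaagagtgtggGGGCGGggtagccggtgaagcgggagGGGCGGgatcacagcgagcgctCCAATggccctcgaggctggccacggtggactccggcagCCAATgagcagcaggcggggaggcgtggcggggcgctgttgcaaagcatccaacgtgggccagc
The ERRFI1 window held 1 CCAAT and 1 GGGCGG, and the LRIG1 window held 2 CCAAT and 3 GGGCGG. Over all 35116 promoter windows of this length in the table, 32% held CCAAT and 42.6% held GGGCGG. Also searched on both strands were TATAAA, a form of the TATA box (in 10.7% of all windows), and the forkhead motif GTAAACA (2.98%). The AP-1 motif TGANTCA (6.57%) and the glucocorticoid receptor half-site AGAACA (12.4%) were searched too. These strings were in neither window. Other forms of the TATA box were not searched, and the ERRFI1 window holds the stretch tatatata close to the start of the gene. The table holds 3 further start windows for LRIG1, and that at chr3:66405768-66406017 held 2 TGANTCA and 0 CCAAT and GGGCGG, while the other two held 0 TGANTCA. Which start is used in these cells was not measured. The marked letters are matches to a short motif, and binding was not measured.

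Signals of all 16 arrays were in a similar range. The median intensity lay between 210 and 254, and between 10325 and 10889 rows of an array had a detection p under 0.05 and are called detected here. The level of the negative control beads, as inferred from the detection p, was 188 to 199 on the 8 arrays of 0 to 21 hours and 166 to 185 on the 8 arrays of 24 to 45 hours. The labels name no batch. The sum over 13 markers of leukocytes, endothelium, fibroblasts and adipocytes was 3128 to 3635 intensity units over 0 to 9 hours. Over 36 to 45 hours it was 3412 to 4039. For 13 markers of mammary epithelium the sums were 78321 to 106565 and 96543 to 116490. All these sums include background. Of the markers of other cell types, 7 (VWF, CDH5, COL1A1, COL1A2, COL3A1, PDGFRB and ADIPOQ) were detected on 0 arrays. CD68 was detected on 16 (median intensity 1067), PECAM1 on 15, CD14 on 12, and PTPRC, DCN and FABP4 on 5 each. Of 13 markers of mammary epithelium, 10 were detected on all 16 arrays, while TP63 was detected on 10 arrays, KRT14 on 1 and ITGA6 on 0. ESR1 and PGR, the hormone receptor genes of luminal breast cells, were detected on 0 arrays.

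The members differed in how well they could be measured. EGFR was detected on all 16 arrays by 2 probes, ILMN_15615 and ILMN_2682, and on 15 by ILMN_15848, which was below the detection threshold at 45 hours. Both probes of ERBB3 (ILMN_8157 and ILMN_6289) and the single probes of ERRFI1 (ILMN_4328) and LRIG1 (ILMN_3319) were detected on all 16. ERBB2 was close to background on both of its probes. Its probe ILMN_28003 had intensities of 214 to 264 and was detected on 11 arrays, and ILMN_2680 had 190 to 241 and was detected on 0. ERBB4 (ILMN_11180, 130 to 186) and the remaining EGFR probe (ILMN_26807, 155 to 195) were not detected on any array. Rows detected on at least 3 of 16 arrays were tested, which were 8 of the 11 rows of the members, for 5 of the 6 genes, and 11957 rows over the array. Of these 8 rows, 6 were detected on all arrays and so did not pass through a window of high values. The detection p-values of ILMN_28003 and ILMN_6289 were not whole multiples of the step shared by most rows (tolerance 0.001 of a step), so these 2 rows may combine more than 1 probe. That is an inference from the values, and each row is called a probe below.

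**Figure D1:**
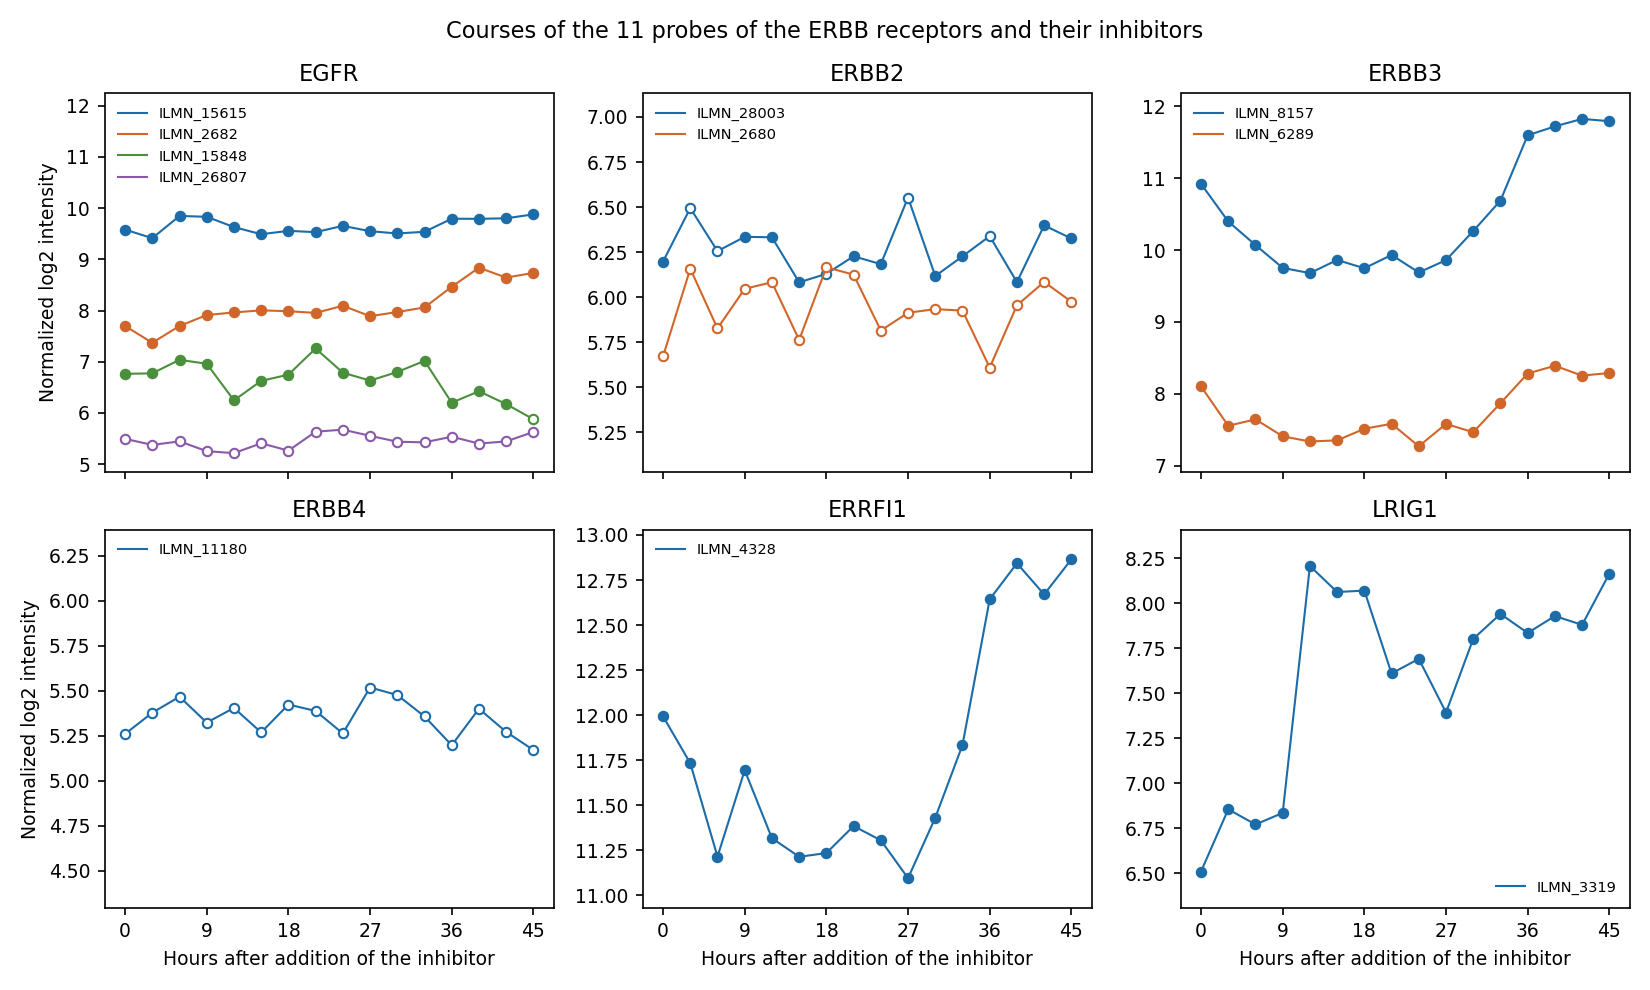
Normalized log2 intensity (y axis, a separate scale in each panel) against hours after addition of the inhibitor (x axis) for the 11 probes, with 1 array for each point, filled points for arrays on which the probe was detected and open points for the others. ERBB3 on ILMN_8157 and ERRFI1 dip and then rise after 27 hours, ERBB3 on ILMN_6289 is lowest at 24 hours and rises after 30 hours, LRIG1 steps up at 12 hours, and ERBB2 and ERBB4 stay near background.

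Time-dependent expression was tested with a smooth curve of time, a natural spline with 3 degrees of freedom, in limma with Benjamini-Hochberg adjustment over the 11957 rows. Both ERBB3 probes, ERRFI1, LRIG1 and the EGFR probes ILMN_2682 and ILMN_15848 were called at an adjusted p under 0.05, which were 6 of the 8 tested rows of the members, while 54.6% of all tested rows were called. EGFR on its brightest probe (ILMN_15615) and ERBB2 were not. By the size of the F statistic ERBB3 (ILMN_8157) ranked 34 of 11957 (adjusted p = 4.3e-07, limma), ERRFI1 ranked 364 (adjusted p = 5.1e-06) and LRIG1 ranked 2080 (adjusted p = 0.00029). All p-values measure the spread between these arrays, which were not replicates of a condition.

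ERBB3 showed a dip and a rise on a normalized log2 scale. On the brighter probe, ILMN_8157, the log2 intensity was 10.92, 10.40, 10.07 and 9.75 at 0, 3, 6 and 9 hours, and 9.68, 9.86, 9.75 and 9.93 at 12, 15, 18 and 21 hours. It was 9.69, 9.86, 10.26 and 10.69 at 24, 27, 30 and 33 hours, and 11.60, 11.72, 11.82 and 11.79 at 36, 39, 42 and 45 hours. ERBB3 RNA was thus low from 9 to 27 hours, climbed at 30 and 33 hours, and stood above all earlier arrays from 36 hours on, the untreated array included. The highest value, at 42 hours, was 4.43-fold the lowest, at 12 hours. In the deposited intensities these were 3602 and 1005, against 1930 at 0 hours. The steepest step between neighbouring arrays was from 33 to 36 hours, at 1.88-fold. RNA of a whole plate was measured, so a change in the share of cells that express the gene and a change in RNA per cell cannot be told apart here or below.

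The other ERBB3 probe, ILMN_6289, followed a similar course over a smaller range. Its log2 intensity fell from 8.10 at 0 hours to 7.27 at 24 hours and reached 8.39 at 39 hours, a 2.17-fold span. The correlation of both probes over the 16 arrays was 0.96, as a description of the same RNA samples on the same arrays. On this probe the late values of 8.25 to 8.39 were 0.15 to 0.29 above the value at 0 hours, while on ILMN_8157 they were 0.67 to 0.90 above it. The late level relative to the untreated array thus differed in size between the probes. ERBB3 lies at chr12:56080108-56103505 (GRCh38.p14, RefSeq), and the positions of the probes in it are not given in the sources used here.

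ERRFI1 followed a course close to that of ERBB3. Its log2 intensity was 11.99, 11.73, 11.21 and 11.69 from 0 to 9 hours and 11.32, 11.21, 11.23 and 11.38 from 12 to 21 hours. It was 11.30, 11.09, 11.43 and 11.83 from 24 to 33 hours, and 12.64, 12.84, 12.67 and 12.86 from 36 to 45 hours. The 4 last arrays lay above all others, and the value at 9 hours stood above its neighbours at 6 and 12 hours. The highest value, at 45 hours, was 3.41-fold the lowest, at 27 hours, and the deposited intensity at 39 hours of 6843 compares with 3963 at 0 hours. The step from 33 to 36 hours was the steepest, at 1.75-fold, as for ERBB3 on ILMN_8157. On ERBB3 ILMN_6289 the steepest step was the fall from 0 to 3 hours (-0.55 on the log2 scale), and that from 33 to 36 hours was 0.41. Over the 16 arrays the correlation of ERRFI1 with ERBB3 (ILMN_8157) was 0.96, which describes courses that share arrays and is given with no test.

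LRIG1 rose in a single step between 9 and 12 hours. Its log2 intensity was 6.51, 6.86, 6.77 and 6.83 from 0 to 9 hours and 8.21, 8.06, 8.07 and 7.61 from 12 to 21 hours. It was 7.69, 7.39, 7.80 and 7.94 from 24 to 33 hours, and 7.83, 7.93, 7.88 and 8.16 from 36 to 45 hours. From 12 hours on, all 12 arrays lay above the 4 earlier ones. The step from 9 to 12 hours was 2.59-fold, and the deposited intensity went from 296 to 478. This probe is dim, with deposited intensities of 271 to 478, so the size of its change depends on the background correction. The correlation of LRIG1 over the 16 arrays was 0.18 with ERBB3 and 0.19 with ERRFI1.

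**Figure D2:**
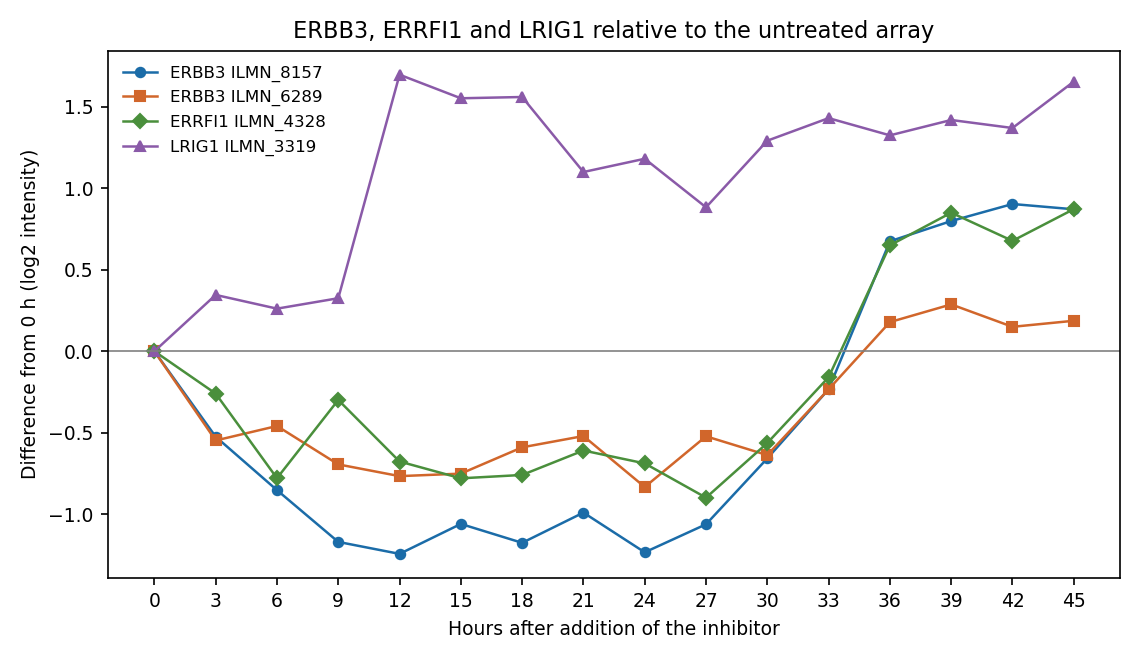
Difference in normalized log2 intensity from the untreated array of 0 hours (y axis) against hours after addition of the inhibitor (x axis), with 1 array for each point, for both ERBB3 probes, ERRFI1 and LRIG1. ERBB3 and ERRFI1 lie below 0 from 3 to 33 hours and above it from 36 hours on, and LRIG1 lies above 0 from 3 hours on, with its main step between 9 and 12 hours.

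EGFR gave different courses on its 3 measurable probes. The brightest probe, ILMN_15615, lay within 9.41 to 9.88 on the log2 scale over all 16 arrays, a 1.38-fold span, and its course was not called (adjusted p = 0.14, limma). Probe ILMN_2682 was at 7.70, 7.37, 7.70 and 7.91 from 0 to 9 hours, at 7.89 to 8.09 on the 8 arrays from 12 to 33 hours, and at 8.47, 8.84, 8.64 and 8.74 from 36 to 45 hours. It was highest at 39 hours, 2.76-fold above its lowest value at 3 hours, and its course was called (adjusted p = 5.4e-05, limma). Probe ILMN_15848 went the other way at the end. It lay at 6.25 to 7.26 from 0 to 33 hours and at 6.20, 6.42, 6.17 and 5.88 from 36 to 45 hours, and the span from 45 hours, where it was not detected, to its peak at 21 hours was at least 2.24-fold.

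The disagreement among the EGFR probes was also seen over the whole series. The correlation over the 16 arrays was 0.62 between ILMN_15615 and ILMN_2682, -0.68 between ILMN_2682 and ILMN_15848 and -0.45 between ILMN_15615 and ILMN_15848. For the gene as a whole no single direction is therefore given. The opposite course rests on ILMN_15848, the dimmest of the 3, with a median intensity of 272. EGFR lies at chr7:55019017-55211628 (GRCh38.p14, RefSeq), and which of its transcripts each probe reads is not given in the sources used here. ERBB2, the gene of the inhibited receptor, at chr17:39688094-39728658, showed no called change on its tested probe ILMN_28003, whose log2 intensity lay between 6.08 and 6.55 (adjusted p = 0.91 for the spline, limma). Its intensities lay near background on all arrays, and no fold is given.

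Windows of neighbouring time points were then compared, to ask when the changes occurred. A window of 2 or 4 arrays is not a set of replicates, and its SD also holds the change inside it. The first window was 6 and 9 hours against 0 and 3 hours. ERBB3 (ILMN_8157) fell from 10.66 ± 0.37 (SD, 2 arrays) to 9.91 ± 0.22, a log2 difference of -0.75 (standard error 0.23, adjusted p = 0.020, limma). Its other probe, ILMN_6289, was at 7.83 ± 0.39 and 7.53 ± 0.17, with windows that overlapped and a difference of -0.30 that did not pass (adjusted p = 0.29, limma). The brightest EGFR probe rose from 9.50 ± 0.12 to 9.84 ± 0.01, by 0.34 (standard error 0.10, adjusted p = 0.020, limma), and its windows did not overlap. ERRFI1 was at 11.86 ± 0.18 and 11.45 ± 0.34, a difference of -0.41 that did not pass (adjusted p = 0.098, limma). Its windows did not overlap, and neither did those of EGFR ILMN_15848, which was not called (adjusted p = 0.54, limma). Separation of windows of 2 arrays therefore carries little weight, and its share over all rows was not counted. Of the 8 tested rows, 1 was higher and 1 was lower, where 13.5% of all tested rows were higher and 11.1% lower (1620 and 1333 rows, or 1756 and 942 under median scaling of the arrays). The EGFR call was lost without the array of 3, 6 or 9 hours, with differences of 0.26, 0.33 and 0.35 (adjusted p = 0.14, 0.064 and 0.075, limma). The ERBB3 call was lost without the array of 0 or 9 hours, with differences of -0.49 and -0.59 (adjusted p = 0.23 and 0.18, limma). The ERRFI1 difference passed without the array of 9 or 33 hours (-0.65 and -0.41, adjusted p = 0.035 and 0.038, limma).

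In the 12 to 21 hour window LRIG1 rose. It went from 6.80 ± 0.05 (SD, 2 arrays) at 6 and 9 hours to 7.99 ± 0.26 (SD, 4 arrays), a log2 difference of 1.18 (standard error 0.18, adjusted p = 0.00012, limma) or 2.27-fold, and its windows did not overlap. This was the 54th largest increase among the 11957 tested rows. The brightest EGFR probe returned to 9.55 ± 0.06, a log2 difference of -0.29 (standard error 0.09, adjusted p = 0.024, limma). Hence 1 of the 8 rows was higher and 1 lower, with 12.8% of all tested rows higher and 12.7% lower (1535 and 1514 rows, or 2186 and 903 under median scaling). Without background correction the LRIG1 difference was still called, at 0.60. The EGFR call was lost under median scaling (-0.19, adjusted p = 0.18, limma) and without the array of 6, 9 or 15 hours (-0.28, -0.29 and -0.27, adjusted p = 0.13, 0.076 and 0.058, limma).

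From 12 to 33 hours no called change of a member was found. Between the windows of 12 to 21 hours and 24 to 33 hours, 0 of the 8 rows were called by limma, at adjusted p-values of 0.72 and above, and 0 had an unadjusted p under 0.05. The differences of ERBB3 (ILMN_8157) and LRIG1 were 0.32 ± 0.16 and -0.28 ± 0.15 (standard error). Over all tested rows 0.00836% were higher and 0.0585% lower, which were 1 and 7 rows, or 37 and 7 under median scaling. These windows lie on either side of the difference in negative control level given above. The ERBB3 values inside the later window were already climbing at 30 and 33 hours, so its mean of 10.12 ± 0.45 does not describe a level.

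Between 24 to 33 hours and 36 to 45 hours ERBB3 and ERRFI1 rose together. ERBB3 (ILMN_8157) rose to 11.73 ± 0.10 (SD, 4 arrays), a log2 difference of 1.61 from 24 to 33 hours (standard error 0.16, adjusted p = 1.9e-07, limma) or 3.05-fold, and its other probe rose by 0.76 (standard error 0.14, adjusted p = 0.00017, limma) or 1.69-fold. ERRFI1 rose from 11.42 ± 0.31 to 12.76 ± 0.11, by 1.34 (standard error 0.12, adjusted p = 7.8e-08, limma) or 2.53-fold. These increases ranked 66 for ERBB3 (ILMN_8157) and 122 for ERRFI1 among the 11957 rows. Of the receptor probes, EGFR ILMN_2682 rose by 0.67 (standard error 0.11, adjusted p = 6.0e-05, limma) and ILMN_15615 by 0.25 (standard error 0.07, adjusted p = 0.0076, limma), while ILMN_15848, detected on 3 of the 4 late arrays, fell by 0.64 (standard error 0.17, adjusted p = 0.0043, limma). LRIG1 was at 7.71 ± 0.23 and then 7.95 ± 0.15, a difference of 0.25 that did not pass (adjusted p = 0.19, limma). In all, 5 of the 8 rows were higher and 1 was lower, with 22.6% of all tested rows higher and 22.7% lower (2697 and 2717 rows, or 2050 and 3442 under median scaling).

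Both windows of this last comparison lie within the 8 arrays of 24 to 45 hours. The call of EGFR ILMN_15615 was lost under median scaling (0.13, adjusted p = 0.22, limma). Without background correction the differences were 0.44 for EGFR ILMN_2682, 0.44 for ERBB3 ILMN_6289 and -0.27 for EGFR ILMN_15848, and all 3 were still called. For ERBB3 (ILMN_8157) the difference lay between 1.44 and 1.80 over all processing alternatives and with each array left out, and for ERRFI1 between 1.15 and 1.48. Of the markers of other cell types, 2 of 6 tested were higher in this window and 0 lower. Of those of mammary epithelium, 5 of 11 tested were higher and 2 lower. The part of either set in the result was not tested.

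**Figure D3:**
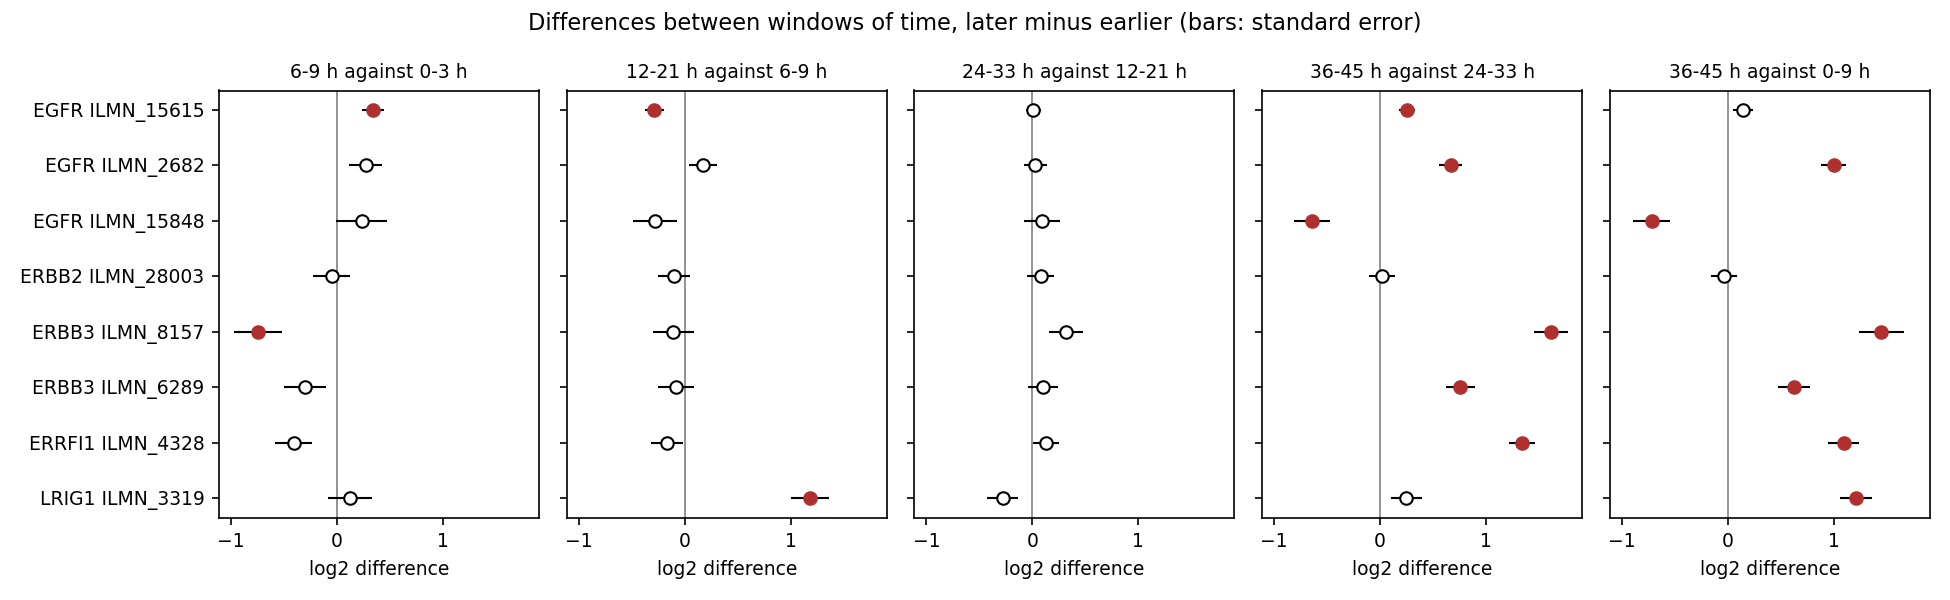
Log2 difference between windows, later minus earlier (x axis, the same scale in all panels), for the 8 tested probes (y axis) in 5 comparisons, with bars for the standard error and filled points for an adjusted p under 0.05 (limma). Between 24-33 and 36-45 hours ERBB3 on both probes, ERRFI1 and EGFR on ILMN_2682 and ILMN_15615 are called higher, and EGFR on ILMN_15848 lower. From 6-9 to 12-21 hours LRIG1 is called higher and EGFR ILMN_15615 lower. From 0-3 to 6-9 hours ERBB3 ILMN_8157 is called lower and EGFR ILMN_15615 higher. Between 12-21 and 24-33 hours 0 probes are called.

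Across the whole course, the arrays of 36 to 45 hours were compared with those of 0 to 9 hours. This comparison spans the difference in negative control level given above, whose part in the result was not tested. ERBB3 rose from 10.28 ± 0.50 to 11.73 ± 0.10 (SD, 4 arrays) on ILMN_8157, a log2 difference of 1.45 (standard error 0.21, adjusted p = 5.6e-05, limma) or 2.73-fold, and by 0.63 (standard error 0.15, adjusted p = 0.0039, limma) on ILMN_6289. LRIG1 rose from 6.74 ± 0.16 to 7.95 ± 0.15, by 1.21 (standard error 0.15, adjusted p = 1.2e-05, limma) or 2.31-fold. ERRFI1 rose from 11.66 ± 0.32 to 12.76 ± 0.11, by 1.10 (standard error 0.15, adjusted p = 2.5e-05, limma) or 2.14-fold. EGFR rose on ILMN_2682 from 7.67 ± 0.22 to 8.67 ± 0.16 (adjusted p = 9.2e-06, limma), fell by 0.72 on the log2 scale on ILMN_15848 (adjusted p = 0.0046, limma) and did not pass on ILMN_15615 (0.15, adjusted p = 0.26, limma). The late values of ILMN_15848 were near the lowest level detected on those arrays (6.07 to 6.10), with 1 of the 4 below it and not detected, so the size of its fall is uncertain. ERBB2 did not pass either, with a difference of -0.03 (standard error 0.12, adjusted p = 0.86, limma).

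Hence 5 of the 8 rows were higher at the end and 1 was lower, with 16.2% of all tested rows higher and 15.0% lower (1932 and 1798 rows, or 2794 and 1029 under median scaling). Without background correction the differences were smaller, at 0.60 for LRIG1, 0.63 for EGFR ILMN_2682, 0.37 for ERBB3 ILMN_6289 and -0.31 for EGFR ILMN_15848, and all 4 were still called. The median log2 difference was 0.81 over the 8 rows and -0.02 over all tested rows. The 8 rows are from 5 genes, with more than 1 row for EGFR and ERBB3, so this is not a median over genes. The call of ERBB3 on ILMN_6289 was lost when 0 and 3 hours were set against 42 and 45 hours (0.44, adjusted p = 0.10, limma), and that of EGFR on ILMN_15615 was gained there (0.34, adjusted p = 0.025, limma). Among the markers of other cell types CD14 was detected on 0 of the 4 early arrays and was higher by at least 2.74-fold on the 4 late ones. CD68 and PECAM1 were higher by 0.68 and 0.84 on the log2 scale, while PTPRC, DCN and FABP4 were tested and not called. Of 11 tested markers of mammary epithelium, 5 were higher and 2 lower. Among them TP63, detected on 0 of the 4 early arrays, was higher by at least 2.55-fold, and KRT6A was lower (-1.10, adjusted p = 0.0034, limma). The part of these markers in the result was not tested.

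The rest of the ERBB pathway was read from lists of 53 genes sorted by role, with the brightest tested probe of each gene. Of 11 ligand genes 7 were tested, while EGF, EREG and NRG4 were detected on 0 arrays and AREG on 1. From 0 to 9 hours to 36 to 45 hours, 0 of the 7 ligands were higher and 1 was lower, with a median difference of -0.30. The gene that fell was NRG1, which encodes a neuregulin that binds ERBB3 and ERBB4, with a log2 difference of -1.06 and a standard error of 0.22 (adjusted p = 0.0014, limma). It was detected on 4 of the 4 early arrays and 2 of the 4 late ones. Of 13 tested adaptors and members of the RAS-MAPK cascade, 4 were higher and 3 lower, with a median of -0.04. The RAS genes NRAS (-0.72, adjusted p = 0.00044, limma) and HRAS (-0.71, adjusted p = 5.0e-05, limma) were lower. The docking protein gene GAB2 was higher by 0.71 (adjusted p = 0.0031, limma). It was detected on 0 of the 4 early arrays, 3 of the 4 late ones and 6 of all 16. Detection of GAB2 did not follow its signal. Its mean log2 intensity was 6.69 over the 4 early arrays, yet only 6.41 in the 24-33 h window, where 3 of 4 arrays were detected. No bound on its fold is therefore given. Before its rise GAB2 was lower at 6-9 h than at 0-3 h (-0.60, adjusted p = 0.023, limma), with 0 arrays detected in either window.

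Of 8 tested genes of the PI3K-AKT arm, 2 were higher and 0 lower, with a median of 0.07. They were PIK3CB, a catalytic subunit of PI3 kinase (0.58, adjusted p = 0.020, limma), detected on 2 of the 4 early arrays, and PIK3R2, a regulatory subunit (0.29, adjusted p = 0.0019, limma). Among 17 genes of receptor turnover and restraint, all of them tested, 2 were higher and 3 lower, with a median of -0.01. The endocytic adaptor SH3KBP1 (-0.60, adjusted p = 9.2e-06, limma) and LRIG2 (-0.54, adjusted p = 0.014, limma) were lower, and USP8, a deubiquitinase of endosomal sorting, was higher (0.43, adjusted p = 0.011, limma). LRIG3, the other relative of LRIG1, had a difference of 0.37 that did not pass (standard error 0.24, adjusted p = 0.24, limma). Counts of both directions in these lists can be read against the 16.2% and 15.0% of all rows given above.

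**Figure D4:**
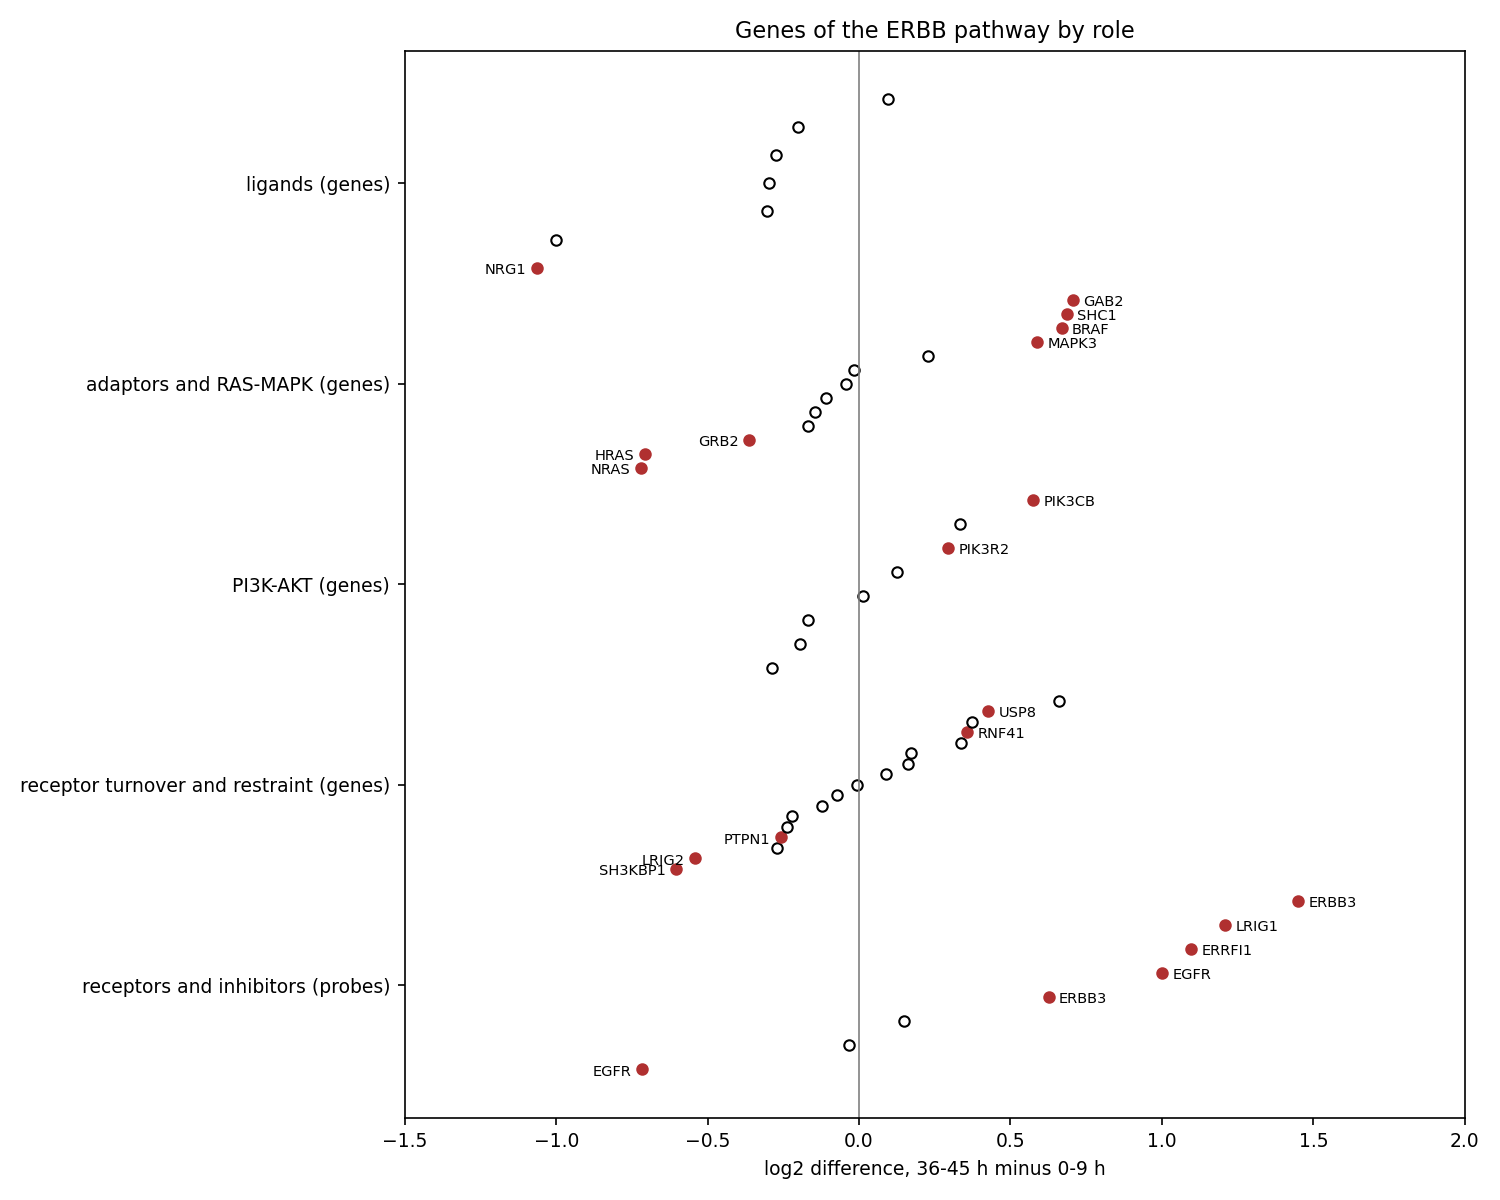
Log2 difference between 36-45 and 0-9 hours (x axis) for the tested genes of the 4 role lists and for the 8 tested probes of the receptors and inhibitors (y axis, spread within each role for legibility), with filled and named points for an adjusted p under 0.05 (limma). Named points of the receptors and inhibitors reach 1.45, and those of the 4 lists lie between -1.06 and 0.71, where the point of GAB2 at 0.71 is a fitted difference from a window with 0 detected arrays.

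Pathway genes were also read in the shorter windows, and those named here were chosen after their values were seen. At 6 and 9 hours against 0 and 3 hours, 3 of the 7 tested ligand genes were higher and 1 was lower, to be read against 13.5% and 11.1% of all rows. EPGN was higher by 1.87 (adjusted p = 7.3e-05, limma), with detection on 1 of the 2 earlier arrays, and TGFA by 0.65 (adjusted p = 0.0071, limma), while HBEGF was lower (-1.12, adjusted p = 0.0038, limma). BTC, detected on 0 of the 2 earlier arrays, was at least 1.36-fold higher (adjusted p = 0.023, limma). MAP2K1, a kinase of the RAS-MAPK cascade, was higher by 1.19 (adjusted p = 8.7e-06, limma). Of the 17 genes of receptor turnover and restraint 2 were higher and 2 lower. Among them are the CBL genes, for ubiquitin ligases that mark EGFR for degradation. CBLB and CBL were lower, with differences of -1.48 and -0.50 (adjusted p = 0.00035 and 0.049, limma), and CBLC was higher by 1.24 (adjusted p = 4.8e-05, limma). In the window of 36 to 45 hours against 24 to 33 hours CBLB was higher by 1.14 (adjusted p = 4.8e-05, limma) and EPGN, detected on 3 of the 4 late arrays, was lower, with a difference of -0.94 (adjusted p = 0.00065, limma).

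Genes whose courses were most like those of the members were listed by the correlation over the 16 arrays with the brightest probe, which describes shared time points and arrays and is given with no test. For ERBB3 these were MGC17330 (0.990), a symbol with no match in the current gene table, CAT (0.988), which encodes catalase, and ZBTB16 (0.986), a transcription factor gene. Counting all probes, 59 had a correlation above 0.95 with ERBB3 and 23 with ERRFI1. For ERRFI1 the most alike were C17orf44, now LINC00324 (0.977), PIGV (0.976) and TMEM66, now SARAF (0.972). For LRIG1 they were STRBP (0.940), SLC25A5 (0.937) and AFMID (0.928), and 0 probes were above 0.95. EGFR on ILMN_15615 was most like ZNHIT4, now INO80B (0.922), SMARCD3 (0.906) and C20orf35, now DBNDD2 (0.904), also with 0 above 0.95. For ERBB2 the highest values were 0.742 for FAM48A, now SUPT20H, 0.723 for CRYAA and 0.721 for CASK.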

How the data were processed

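MCF10A arrays (16, 1 for each time point) were analysed. The authors deposited bead intensities on a linear scale, without normalization across arrays, and beside each value a detection p-value from the negative control beads. The authors' methods name quantile normalization, and the summary software is not given in the sources used here. Intensities were corrected with normexp (offset 16), using the negative control level inferred from 19092 rows taken as single probes, quantile normalized and put on the log2 scale (limma 3.58.1 in R 4.3.3). The offset compresses dim probes. Rows were kept where 3 or more of the 16 arrays had a detection p under 0.05 (11957). A spline of time with 3 degrees of freedom (12 residual degrees of freedom), a fit of 4 windows (36-45 h against 0-9 h) and a fit of 5 windows (the other comparisons) used all arrays, and the prior variance followed intensity. Benjamini-Hochberg adjustment covered all tested rows.

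Each member's rows were kept separate. Some pathway genes are not reported here and were left out of the counts. For the others the 3 with the largest called change from 0-9 h to 36-45 h were named in each role, and for likeness the 3 symbols with the highest Pearson correlation. Where the dim side of a fold was detected on 0 arrays the fold is given as a bound, against the probe's own intensity or, if higher, the lowest one detected for single probes on that array. GAB2 is an exception, and its fitted difference is given. The members and lists were chosen with earlier results of these data known. Alternatives were intensities without background correction, an offset of 50, cyclic loess, median scaling, other filters, no trend, other curves and contrasts, fewer arrays in the fit, and each array left out in turn. Where this left 1 array in a window, that array was assumed to vary like the others. Precision is limited by how few arrays there were. The spline and window tests were tried on simulated data with independent noise. That simulation held no effects shared by the rows of an array and, for the windows, no drift inside them, so it does not cover those limits. Figures were drawn with matplotlib 3.10.9. Promoters were matched by symbol for 5 of the 6 genes.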

Additional observations from a re-analysis of the deposited data

Results flagged for a closer look

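In the window of 36 to 45 hours, EGFR on its brightest probe (ILMN_15615) had a log2 intensity of 9.88 at 45 hours, apart from 9.79 to 9.80 on the other 3 arrays. The gap was 0.876 of the range of the window, above Dixon's critical value for 4 samples. Of 32 windows of 4 arrays examined over the 8 tested probes this was the 1 that stood out, and chance alone marks about 1 in 20 of independent samples. These windows hold successive time points of probes that share arrays, so that rate need not hold here.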

How the results depend on the processing

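Counts of called member probes kept within 1.5 times their value in all 6 comparisons under the processing alternatives, with 1 exception. Median scaling left 1 of 8 called at 12-21 h against 6-9 h, in place of 2, because the EGFR call (ILMN_15615) was lost. With each array left out, the count was 1 to 2 in that comparison, 1 to 3 at 6-9 h against 0-3 h (2 with all arrays), 5 to 6 for the spline, 6 at 36-45 h against 0-9 h and against 24-33 h, and 0 at 24-33 h against 12-21 h. No direction of a called difference reversed. When the spline was replaced by a straight line, EGFR ILMN_15848 and ERBB3 ILMN_6289 were no longer called (adjusted p = 0.084 and 0.070, limma), and EGFR ILMN_15848 was lost without the 45 h array (adjusted p = 0.099, limma). Over all alternatives and arrays left out, the adjusted p (limma) of EGFR ILMN_15615 ranged from 0.0071 to 0.14 at 6-9 h against 0-3 h, 0.017 to 0.18 at 12-21 h against 6-9 h, 0.0053 to 0.22 at 36-45 h against 24-33 h and 0.025 to 0.63 at 36-45 h against 0-9 h. At 6-9 h against 0-3 h it ranged from 0.0039 to 0.23 for ERBB3 ILMN_8157 and 0.035 to 0.58 for ERRFI1. For ERBB3 ILMN_6289 it was 0.00028 to 0.10 at 36-45 h against 0-9 h and 9.8e-05 to 0.070 for the spline, and for the spline of EGFR ILMN_15848 it was 0.0030 to 0.099. The change of LRIG1 from 0-9 h to 36-45 h lay between 0.60 and 1.34, lowest with no background correction.

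Over all tested rows, the straight line gave 1953 calls against 6533, and a fit of the 8 arrays compared gave 2475 against 3730 at 36-45 h against 0-9 h. The count at 6-9 h against 0-3 h fell from 2953 to 1954 without the 0 h array and 1645 without the 9 h array, and that at 12-21 h against 6-9 h from 3049 to 1351 without the 6 h array. The 8 rows at 24-33 h against 12-21 h became 44 under median scaling, 5 without the trend, 3 with 4 windows and 4 at the lowest with 1 array left out. The causes were not tested. Signal over background limits ERBB2, ERBB4, LRIG1 and EGFR on ILMN_15848 and ILMN_26807. No paired analysis was possible because each group is 1 array and no replicate numbers above 1 are shared.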
